A study of Mus musculus with 8 samples.

Results

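Cxcl9, Cxcl10 and Cxcl16 encode chemokines that guide lymphocytes into inflamed tissue and tumors, and they are 3 of the 32285 genes counted in these libraries. They were chosen by name, and were followed through every group as transcript counts per group, per cell cluster and per cell. Single-cell RNA sequencing was run on cells with CD45, CD11b and high Ly6C at the surface (CD45+CD11b+Ly6Chi), a phenotype assigned to monocytic myeloid-derived suppressor cells, after sorting from MC38 tumors or from the blood of mice bearing them. MC38 is a mouse colon carcinoma line, grown here under the skin. Tumors were given 1 local dose of 20 Gy ionizing radiation (IR) or sham treatment (control), and cells were collected 3 days after IR. WT mice carried floxed Ythdf2 alleles without Cre, and cKO mice carried the same floxed alleles with Lyz-Cre, whose Cre is active in monocytes, macrophages and neutrophils and not in lymphocytes. All mice thus carried the floxed alleles and all bore MC38 tumors, and blood of the IR groups came from mice irradiated at the tumor. Young adult mice of both sexes were used per the methods, and cells of several mice were pooled per genotype and treatment.

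Control and IR tumors and control and IR blood gave 1 library each, 4 in all, and every library mixed both genotypes, which were read from 2 hashtag antibodies, B0301 for WT and B0302 for cKO. This gave 8 groups of 1 pooled sample each, so no test between groups was possible and no p-value is given. Treatment and library cannot be told apart, whereas the genotypes shared a library. The intervals quoted are 95% intervals of counting error only and say nothing of the spread between mice. Levels are given as UMIs (unique molecular identifiers, each standing for 1 captured transcript) per 1000000 gene UMIs of a group (CPM, for short), with an exact Poisson interval, and shares of cells with an exact Clopper-Pearson interval. The matrices held 87703837, 81601307, 51731085 and 51653956 gene UMIs in the order tumor control, tumor IR, then the same for blood, while 26638 cells were kept, between 2146 and 4433 per group.

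CXCL9 and CXCL10 are secreted ligands of CXCR3, a receptor of activated T cells and NK cells. Both are classical products of cells exposed to interferon-γ, which acts through transcription factors such as IRF1, but Cxcl10 is also induced directly by type I interferon and by NF-κB, whereas Cxcl9 depends more narrowly on interferon-γ. CXCL16 is made as a membrane-bound protein that ADAM proteases can release, and its receptor is CXCR6, found on effector and resident T cells and on NKT cells. Tumor macrophages, monocytes and dendritic cells are known sources of all these chemokines.

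Cxcl9 (ENSMUSG00000029417, chromosome 5, 92321347 to 92328079, minus strand) and Cxcl10 (ENSMUSG00000034855, chromosome 5, 92346638 to 92348889, minus strand) are neighbours in the mm10 build. Cxcl16 (ENSMUSG00000018920) is on chromosome 11 at 70453983 to 70459984, also on the minus strand. The 250 bases before the RefSeq start sites of Cxcl9 and Cxcl10 are shown because these neighbours, which differ below in their levels after IR, also differ there in the letters of common interferon and NF-κB motifs. They lie at chr5:92328080-92328329 (Cxcl9) and chr5:92348890-92349139 (Cxcl10) and are written 5′ to 3′ on the minus strand, with motif matches in capitals.
Cxcl9: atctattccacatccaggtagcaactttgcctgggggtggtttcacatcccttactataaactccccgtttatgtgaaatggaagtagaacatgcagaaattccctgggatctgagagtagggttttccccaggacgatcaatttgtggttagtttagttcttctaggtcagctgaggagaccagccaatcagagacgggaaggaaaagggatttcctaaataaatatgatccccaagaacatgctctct
Cxcl10: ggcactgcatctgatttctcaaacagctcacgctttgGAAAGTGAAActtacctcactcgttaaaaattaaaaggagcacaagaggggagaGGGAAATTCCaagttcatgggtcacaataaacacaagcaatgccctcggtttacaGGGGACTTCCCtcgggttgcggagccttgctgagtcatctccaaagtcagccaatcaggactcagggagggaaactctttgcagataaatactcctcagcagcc
Both strands were searched for 3 motifs, which were the interferon-γ activated site TTCNNNGAA, the interferon-stimulated response element GAAANNGAAA, and the NF-κB consensus. The Cxcl10 window held a response element match at positions -213 to -204 from the start site, an NF-κB match at -159 to -150, and a pair of overlapping NF-κB matches at -104 to -95 and -103 to -94, the latter read on both strands. None of the 3 motifs was found in the Cxcl9 window, which says only that these letters are not in these 250 bases. Among 32851 promoters of the same length, 2.98% held the response element, 7.25% the NF-κB consensus and 7.02% the activated site. Cxcl16 was not matched in the promoter table.

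Several properties of the libraries bear on every value below. Of the 4653 kept barcodes of tumor control, 4501 also had at least 500 UMIs in the tumor IR matrix, and 6686 of the 6876 kept tumor IR barcodes were likewise found in the tumor control matrix, but only 30 barcodes were kept in both. Of the tumor control barcodes lacking hashtags, 7325 of 7327 carried hashtags in the tumor IR matrix, so membership in a tumor group rested on the hashtags. Counted in the other tumor matrix, the same barcodes gave nearly the same levels, for example 766 in place of 813 CPM of Cxcl9 for WT control and 1977 in place of 1955 CPM of Cxcl10 for WT IR. In the blood libraries, 18 barcodes were kept in both.

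The hashtag labels were checked against 2 genes. Lyz2, the locus that carries the Cre, was counted at 5598 to 14320 CPM in the WT groups and at 83.7 to 138 CPM in the cKO groups. Ythdf2 itself went against the label, with 33.4 to 55.9 CPM in WT and 305 to 373 CPM in cKO. A 3′ tag can lie beyond the deleted exons, but why the level was higher in cKO was not tested. Ythdf2 thus did not bear out the labels, and WT and cKO here name the hashtag a cell carried. Of the gate's genes, Ptprc (CD45) was detected in 79.9% to 86.1% of tumor and 98.7% to 99.6% of blood cells, and Ly6c2 in 31.6% to 66.3% and 38.8% to 44.3%. Neutrophil-like clusters held 5266 of 8046 blood control and 4872 of 7063 blood IR cells, a type usually found at intermediate Ly6C. The tumor groups also held cycling fibroblast-like cells, a type that a CD45 gate should remove and of which 5.60% to 18.8% had a Ptprc UMI. There were 114 in WT control, 250 in cKO control, 80 in WT IR and 46 in cKO IR, and because such cells are rich in RNA they held 16.5%, 30.3%, 9.78% and 5.57% of the gene UMIs of these groups.

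All 3 chemokines were abundant in tumor groups and scarce in blood. Cxcl9 was counted at 813 CPM (801 to 826) in WT control tumors, 486 (478 to 495) in cKO control tumors, 344 (336 to 352) in WT irradiated tumors and 333 (326 to 341) in cKO irradiated tumors. Its level was thus highest in WT control and the irradiated groups overlapped in their intervals. In blood, Cxcl9 was counted at 1.13 CPM in WT control, 8.31 in cKO control, 5.81 in WT IR and 0.485 in cKO IR, and the lowest pair, WT control and cKO IR, overlapped.

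Cxcl10 had the opposite order of treatments in tumors. Its level was 826 CPM (814 to 839) in WT control, 836 (824 to 847) in cKO control, 1955 (1936 to 1974) in WT IR and 1617 (1601 to 1633) in cKO IR. Both irradiated groups were above both control groups, and the control groups overlapped in their intervals. In blood it was counted at 17.8 CPM in WT control, 26.3 in cKO control, 25.9 in WT IR and 13.5 in cKO IR, and cKO control overlapped with WT IR.

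Cxcl16 varied least among the tumor groups, from 299 CPM (293 to 307) in cKO control through 340 (332 to 348) in WT IR and 386 (378 to 395) in WT control to 412 (404 to 420) in cKO IR. No neighbours in this order overlapped, but the whole range was smaller than the difference between control and IR for either of the other genes in WT tumors. In blood it lay between 1.46 and 3.92 CPM, and all groups but cKO control overlapped.

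**Figure D1:**
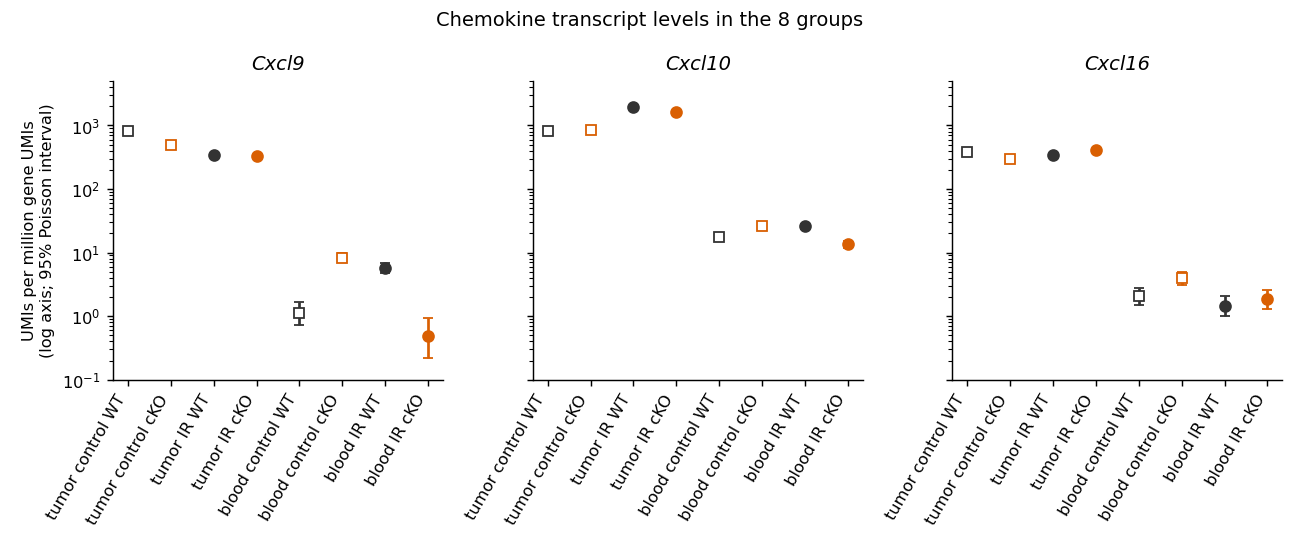
Levels of Cxcl9, Cxcl10 and Cxcl16 in CPM (UMIs scaled to a common depth, log axis) in the 8 groups, with exact 95% Poisson intervals where these exceed the symbol; open squares are control, filled circles are IR, dark symbols are WT and orange symbols are cKO. The tumor groups lie above 290 CPM for every gene and the blood groups below 27 CPM, and between control and irradiated WT tumors Cxcl9 goes from 813 to 344 CPM while Cxcl10 goes from 826 to 1955 CPM.

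The first question of the design was how local IR changed these transcripts in cells of each genotype. In WT tumors, Cxcl9 was 2.36-fold lower in the irradiated than in the control group, a log2 ratio of -1.24 (-1.28 to -1.20). Cxcl10 was 2.37-fold higher, a log2 ratio of 1.24 (1.22 to 1.27), and Cxcl16 differed least at -0.18 (-0.23 to -0.14). So the members of a chromosomal pair that share the receptor CXCR3 stood on opposite sides of the 2-fold limit, Cxcl10 above it and Cxcl9 below it. Among the 10160 genes with at least 100 UMIs over both groups, 2.60% were at least 2-fold higher and 3.12% at least 2-fold lower.

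In cKO tumors the directions of Cxcl9 and Cxcl10 were as in WT, with log2 ratios of -0.54 (-0.59 to -0.50) and 0.95 (0.93 to 0.98), while Cxcl16 was higher at 0.46 (0.42 to 0.50). None of the 3 passed the 2-fold limit, beside 5.10% of genes higher and 16.7% lower. Many genes of that comparison came with the fibroblast-like cells, whose markers summed to 1222 CPM in cKO control (7 of 7 counted) and to 215 CPM in cKO IR (6 of 7), against 726 and 423 CPM in WT control and WT IR. Without those cells the share of lower genes was 6.26%, and the log2 ratios were -0.98 for Cxcl9, 0.63 for Cxcl10 and 0.05 for Cxcl16. For WT tumors the same step gave -1.44, 1.13 and -0.30.

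The IR difference of Cxcl9 was larger in WT than in cKO by 0.70 (0.64 to 0.75) on the log2 scale, and that of Cxcl10 was larger in WT by 0.29 (0.26 to 0.33). For Cxcl16 the difference between genotypes was 0.64 (0.58 to 0.71), from a slightly negative to a positive value. These intervals cover counting only and the difference could not be tested over samples. CPM also shifted the median of all genes to -0.13 in the WT and -0.18 in the cKO comparison. With TMM factors, which centred these medians at 0.02, the log2 ratios in WT were -1.09, 1.39 and -0.03 for Cxcl9, Cxcl10 and Cxcl16, and in cKO -0.34, 1.16 and 0.66.

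The second question was how the genotypes differed within a library. In control tumors Cxcl9 was lower in cKO than in WT, at a log2 ratio of -0.74 (-0.78 to -0.71), and Cxcl16 was lower at -0.37 (-0.41 to -0.32). Cxcl10 was level at 0.02 (-0.01 to 0.05), and slightly negative (-0.05) with TMM factors. The median of all genes was at 0.11 in this comparison, with 3.40% of genes at least 2-fold higher and 1.36% at least 2-fold lower, and none of the 3 chemokines among them. In irradiated tumors the ratios were -0.05 (-0.09 to 0.00) for Cxcl9, -0.27 (-0.29 to -0.25) for Cxcl10 and 0.28 (0.23 to 0.32) for Cxcl16, again within the 2-fold limit that 0.199% of genes passed upward and 0.896% downward.

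The WT assignment itself touched Cxcl10. The rule required B0301 only to equal B0302 or exceed it, and in tumor control 1509 of the 2507 WT cells (60.2%) had a B0301 count of 1 to 4 times B0302. Those cells had 1093 CPM of Cxcl10, and the 998 cells with at least 4 times as much B0301 had 509 CPM. The subsets also differed in the cell clusters described below. Of the 1509 cells, 594 were in cluster 4, and of the 998 cells, 395 were in cluster 3. Cluster 4 held 712 WT control cells in all, so most of them were in the closer range. Lyz2 was at 7154 and 6466 CPM in these subsets, so both were on the WT side of that marker. In tumor IR 708 of 3118 WT cells (22.7%) were in the closer range, with 2831 against 1755 CPM of Cxcl10. With the 4-fold margin on both sides, Cxcl10 in control tumors was higher in cKO than in WT, at a log2 ratio of 0.72 in place of 0.02, and its IR difference in WT was 1.79 in place of 1.24. Cxcl9 and Cxcl16 kept their directions in both comparisons, at -0.88 and -0.65 for genotype and -1.32 and -0.35 for IR.

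Few cells made most of the Cxcl9 and Cxcl10 transcripts. Cxcl9 was detected in 32.8% of WT control, 29.5% of cKO control, 20.7% of WT IR and 22.2% of cKO IR tumor cells, and Cxcl10 in 32.5%, 40.2%, 52.1% and 47.7%. Cxcl16 was detected in more cells, 61.0%, 67.9%, 54.4% and 61.8% in the same order, but with fewer UMIs each. Cells with a Cxcl16 UMI held 4.09 to 5.10 on average, whereas cells with a Cxcl9 UMI held 9.89 to 20.0 and cells with a Cxcl10 UMI 20.5 to 24.6. The top 10% of cells thus held 80.4% to 91.2% of the Cxcl9 UMIs, 68.6% to 88.4% of the Cxcl10 UMIs and 39.7% to 47.6% of the Cxcl16 UMIs.

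Detection depends on depth, so each cell was also thinned to 1000 UMIs. The thinned share of Cxcl9-positive cells was 21.1% in WT control, 16.1% in cKO control, 10.9% in WT IR and 12.2% in cKO IR, and that of Cxcl10 was 18.2%, 19.3%, 35.1% and 30.6%. Both genes therefore kept the order of treatments at equal depth. For Cxcl10 in WT, the share of cells with a UMI differed more than the mean of those cells, which was 20.5 UMIs in control and 24.6 in IR. For Cxcl9 both the share and the mean were lower, with 20.0 UMIs per positive cell in WT control and 10.9 in WT IR.

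The cells with the highest counts showed the same pattern. Cells with at least 10 UMIs of Cxcl9 made up 15.0% (13.6% to 16.4%) of WT control, 11.9% (10.5% to 13.3%) of cKO control, 6.35% (5.52% to 7.26%) of WT IR and 6.47% (5.70% to 7.30%) of cKO IR cells. For Cxcl10 the shares were 11.9%, 15.4%, 23.9% and 20.1%. High Cxcl9 cells were fewer and high Cxcl10 cells more frequent after IR in both genotypes.

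Free RNA of the tumor libraries also held these transcripts. The ambient profile held 425 and 356 CPM of Cxcl9, 1249 and 1948 CPM of Cxcl10 and 369 and 436 CPM of Cxcl16 in the tumor control and tumor IR matrices. It used barcodes without regard to hashtags, and these matrices shared barcodes, so each profile may mix both tumors. Cxcl10 of the control groups (826 and 836 CPM) lay below the 1249 CPM of their matrix, and that of WT IR (1955 CPM) was close to 1948 CPM. NK cell-like cells, which should make little Cxcl9, had a Cxcl9 UMI in 1.15% of 174 cells in tumor control (median depth 2672 UMIs) and in 1.82% of 165 cells in tumor IR (median 2347), at 3.31 and 6.69 CPM. These shares are far below the 19.3% to 55.8% of cells with Cxcl9 in clusters 3, 4, 5, 8 and 13 of WT control, which are described below. Cxcl10 was found in 9.77% and 20.0% of the same NK cell-like cells, at 49.6 and 430 CPM, with up to 55 UMIs in 1 cell. T cell-like cells of tumor control held 5.81 CPM of Cxcl9 and 13.6 CPM of Cxcl10, and those of tumor IR held no Cxcl9 UMI and 447 CPM of Cxcl10. Lymphocyte-like cells of either library thus held Cxcl9 far below its level in free RNA, while their Cxcl10 was higher in tumor IR than in tumor control.

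The 26638 cells were grouped into 22 clusters without using the 3 chemokines, Ythdf2 or the lysozyme genes. Named clusters carry the suffix "-like", and 6 clusters are given by number. Cluster 3 had 4 raised macrophage markers (C1qa, C1qb, C1qc and Trem2) but none among its 10 leading genes, where the epithelial marker Cdh1 stood, and was left unnamed. Of the numbered clusters, cluster 3 was led by MHC class II genes and Spp1, cluster 4 by Adora2b and Olr1, cluster 5 by the interferon-stimulated genes Ifit2 and Rsad2, cluster 8 by mitochondrial transcripts and Gm42418, cluster 11 by Ccl3 and G0s2, and cluster 13 by Cd209a and Ccl17. Clusters 5 and 11 came almost wholly from 1 library, with 95.7% and 90.7% of their cells from tumor IR, and may mark that library rather than a cell type. Cluster 11 had 2 raised neutrophil markers (Cxcr2 and G0s2), fewer than the 3 needed for a name.

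In WT control tumors Cxcl9 was highest in cluster 5 (1631 CPM, 60 cells), cluster 3 (1454 CPM, 620 cells) and cluster 13 (1367 CPM, 153 cells), followed by cluster 4 (828 CPM), cluster 8 (549 CPM) and macrophage-like cells (398 CPM). Cluster 3 alone held 52.1% of the Cxcl9 UMIs of WT control and 40.7% of those of cKO control. Cxcl10 had a different order. Cluster 5 led with 5722 CPM, followed by cluster 4 with 1669 CPM and cluster 13 with 1020 CPM, while cluster 3 was at 550 CPM and macrophage-like cells at 388 CPM. The 5722 CPM of these 60 cells was tied to this clustering. Under other clusterings the highest Cxcl10 level of a WT control cluster was 2033 to 2674 CPM. In WT control 44.0% of the Cxcl10 UMIs came from cluster 4, where 594 of 712 cells had B0301 at only 1 to 4 times B0302.

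Cxcl16 followed Cxcl9 more closely than Cxcl10. In WT control it was at 632 CPM in cluster 3, where 90.5% of cells had a UMI, at 583 CPM in cluster 13, at 370 CPM in macrophage-like cells and at 298 CPM in cluster 4. Its highest level was in the mature dendritic cell-like cells of cKO IR tumors, a type marked by Ccr7 and Fscn1, with 1238 CPM (1138 to 1344) and a UMI in 93.3% of 75 cells. These 75 cells held 216 CPM of Cxcl9 and 91.5 CPM of Cxcl10. The type had only 25 cells in WT control, 18 in cKO control and 29 in WT IR, under the minimum of 50, so its level was not compared between groups. Cluster 11 showed the reverse, with 3747 CPM of Cxcl10, 96.5 CPM of Cxcl9 and 29.1 CPM of Cxcl16 in WT IR.

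Within clusters, Cxcl9 was lower after IR in most types of cell. Of 7 WT tumor clusters with at least 50 cells in each group and 20 UMIs over both, 6 had a lower level in IR and an interval below 0. Cluster 3 went from 1454 to 376 CPM, cluster 4 from 828 to 374, cluster 5 from 1631 to 438 and macrophage-like cells from 398 to 70.9. The exception was the fibroblast-like cluster, with 38.0 and 243 CPM, but 1 cell held 267 of its 484 Cxcl9 UMIs in WT IR. In cKO tumors 3 of 5 clusters were lower, with 778 and 381 CPM in cluster 3, 517 and 291 in cluster 4, and 710 and 92.8 in macrophage-like cells, while cluster 13 was higher (867 and 1084 CPM) and the interval of cluster 8 included 0.

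Cxcl10 did not move one way within clusters. In WT tumors it was higher after IR in 5 of 8 clusters and lower in 3. The share of WT clusters with a lower level depended on the clustering. It was 37.5% here, 14.3% at a clustering resolution of 0.4 and 33.3% at 1.2. It was higher in cluster 4 (1669 and 2239 CPM) and cluster 13 (1020 and 2058 CPM), and lower in cluster 5 (5722 and 4138 CPM), cluster 3 (550 and 397 CPM) and macrophage-like cells (388 and 250 CPM). The control level of cluster 5 came from 60 cells and was tied to this clustering. In cKO tumors 3 of 6 were higher and 3 lower, and macrophage-like cells had 764 CPM in control and 247 CPM in IR. Cluster 5, which held 13.8% of the Cxcl10 UMIs of WT control, held 55.7% in WT IR and 54.6% in cKO IR.

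**Figure D2:**
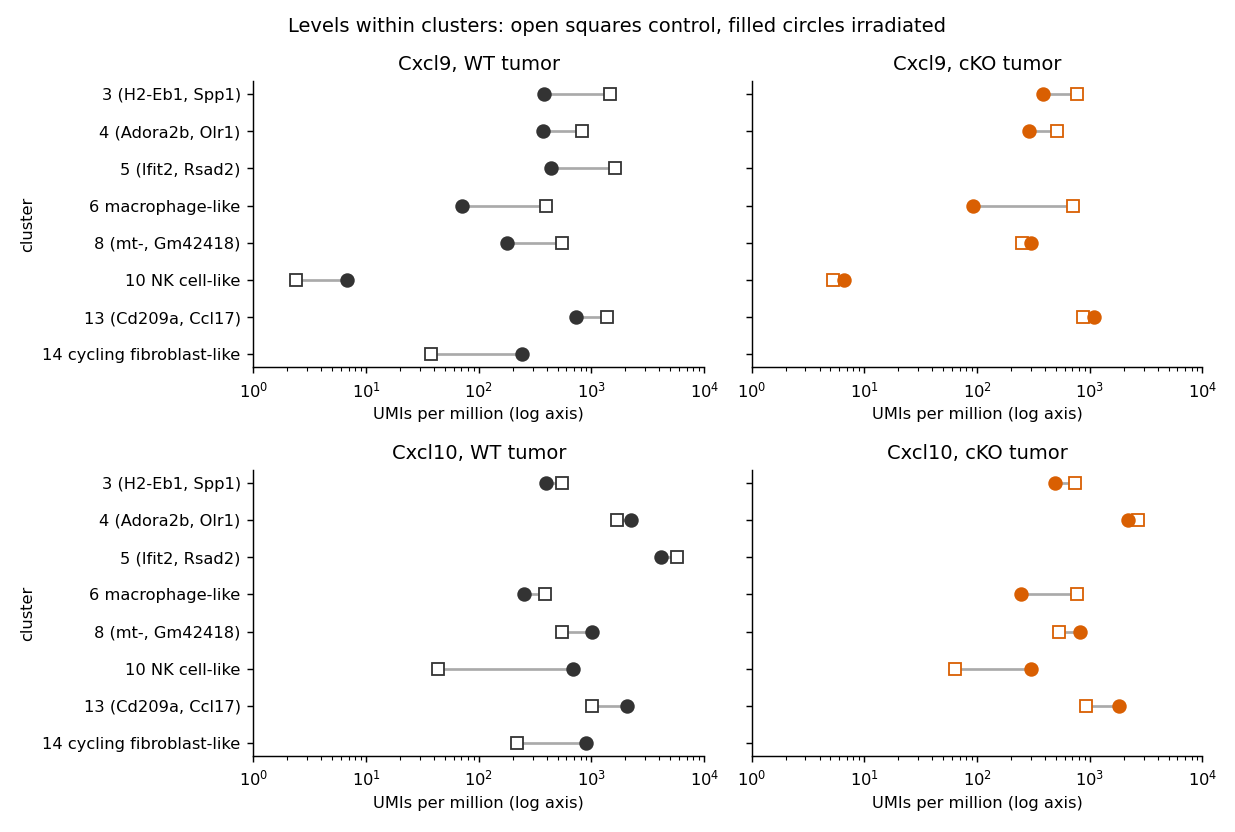
Levels of Cxcl9 (upper panels) and Cxcl10 (lower panels) in CPM (log axis) in tumor clusters with at least 50 cells in both groups, for WT (left) and cKO (right); open squares are control, filled circles are IR, and a grey line joins the pair. For Cxcl9 in WT tumors the circle lies left of the square in clusters 3, 4, 5, 6, 8 and 13, and for Cxcl10 the circles lie on either side.

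The shift in cluster makeup was set apart by weighting the irradiated clusters with the mix of the control group. In WT tumors this used 8 clusters that held 94.7% of the IR and 94.5% of the control UMIs. With the control mix, the log2 ratio of Cxcl9 was -1.41 in place of -1.24, and that of Cxcl10 was 0.36 in place of 1.18. The Cxcl9 difference was thus as large at a fixed mix, and the Cxcl10 difference was smaller. Cluster 5 made up 2.39% of WT control and 26.7% of WT IR cells, and since it was led by interferon-stimulated genes that themselves differed between the groups, its size and their level cannot be told apart. In cKO tumors the 6 shared clusters held only 65.1% and 58.0% of the UMIs, and there Cxcl9 was at -1.06 and Cxcl10 at -0.12 with their own mix, and at -1.21 and -0.48 with the control mix.

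Macrophage-like cells alone, the cycling ones included, gave -2.44 for Cxcl9 and -0.80 for Cxcl10 in WT and -2.61 and -1.81 in cKO. With cluster 3 added these were -1.92 and -0.53 in WT and -1.38 and -0.995 in cKO, so both chemokines were lower after IR with and without that cluster. After IR, Cxcl10 was at 239 CPM (WT) and 248 CPM (cKO) in the macrophage-like cells and at 397 and 492 CPM in cluster 3. NK cell-like cells of tumor IR had 430 CPM and the ambient profile 1948 CPM. The share of free RNA in these Cxcl10 values was not tested. Cluster 3 made up 24.7% of WT control, 26.4% of cKO control, 16.4% of WT IR and 20.0% of cKO IR cells. For cKO against WT in control tumors, Cxcl9 was at 0.78 in the macrophage-like cells and at -0.52 with cluster 3 added, so that its direction depended on where this cluster was placed.

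Genotype differences within tumor clusters had no single direction either. In control tumors Cxcl9 was lower in cKO in 5 of 6 clusters, 4 of them with an interval below 0, and higher in macrophage-like cells (710 and 398 CPM), whereas cluster 3 had 778 CPM in cKO and 1454 CPM in WT. Cxcl10 was higher in cKO in 5 of 7 control clusters, 4 with an interval above 0, among them cluster 4 (2668 and 1669 CPM) and macrophage-like cells (764 and 388 CPM). The WT side of cluster 4 was mostly cells of the closer hashtag range (594 of 712), a range left out of cKO. In irradiated tumors Cxcl10 was lower in cKO in 7 of 8 clusters, 5 with an interval below 0.

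Cxcl9 and Cxcl10 were found in the same cell more often than their separate shares would give. In tumor control WT, 385 of 2507 cells (15.4%) had a UMI of both, where independent detection at the same shares gives 267.6 cells, a ratio of 1.44. The ratios were 1.30 in cKO control (331 cells), 1.21 in WT IR (407 cells) and 1.26 in cKO IR (502 cells). Deeper cells show more of every gene, but thinned to 1000 UMIs the ratios were higher, at 1.79, 1.96, 1.34 and 1.42. The odds ratios of the thinned cells were 2.89, 3.25, 1.74 and 1.90. The excess was therefore seen at equal depth, and it was larger in the control than in the irradiated groups of either genotype.

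The overlap was far from complete. Cells with Cxcl9 alone were 17.4% of WT control, 14.1% of cKO control, 7.67% of WT IR and 8.86% of cKO IR, and cells with Cxcl10 alone were 17.2%, 24.7%, 39.0% and 34.4%. Cells with both changed little, from 13.1% to 15.4% over the 4 groups. The treatments thus differed in the cells with only 1 of the chemokines: those with Cxcl9 alone were fewer and those with Cxcl10 alone more frequent after IR. Free RNA can add to the cells with Cxcl10 alone, and its share in them was not tested. NK cell-like cells, almost free of Cxcl9, had a Cxcl10 UMI in 9.77% of cells in tumor control and 20.0% in tumor IR. Among cells with Cxcl9, 46.8% also had Cxcl10 in WT control and 63.0% in WT IR. Among cells without Cxcl9 these shares were 25.6% and 49.2%.

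**Figure D3:**
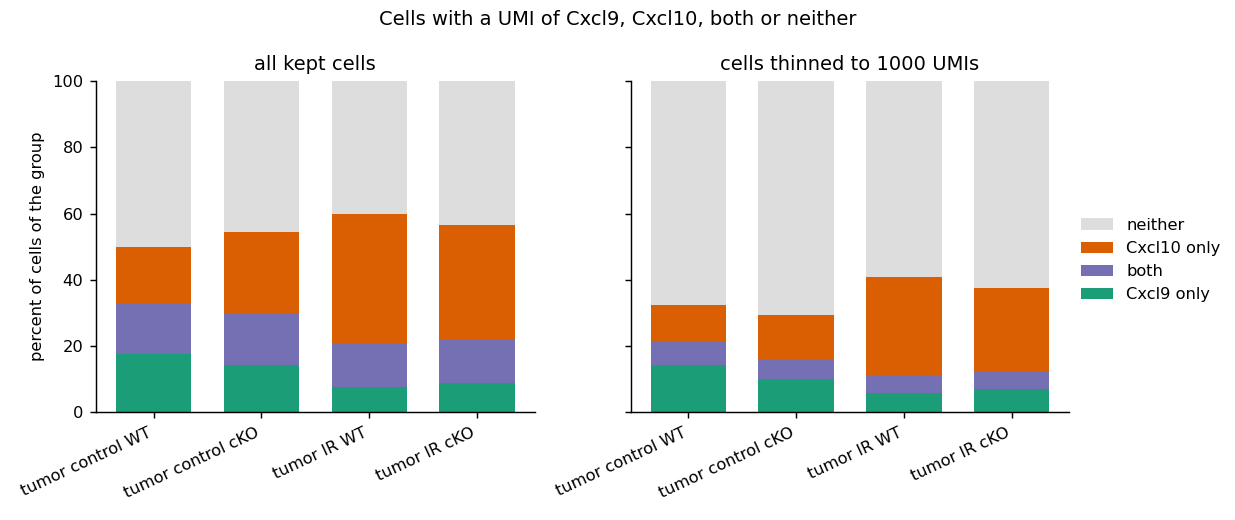
Percent of tumor cells with a UMI of Cxcl9 alone, of both chemokines, of Cxcl10 alone or of neither, in the 4 tumor groups, for all kept cells (left) and for cells thinned to 1000 UMIs (right); bars are stacked to 100%. The middle segment, both genes, stays between 13.1% and 15.4% at full depth, while the Cxcl10-only segment is 17.2% in WT control and 39.0% in WT IR. UMIs from free RNA were not removed.

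Levels went together too. Cells with Cxcl9 had 1479 CPM of Cxcl10 in WT control against 453 CPM in cells without it, and 2621 against 1728 CPM in WT IR. In cKO the values were 1600 against 479 CPM in control and 2222 against 1388 CPM in IR. Within clusters at full depth the odds ratio of the pair varied. It was 3.44 in macrophage-like cells of WT control (cluster 6, with 38 of 376 cells positive for both), 2.41 in cluster 3 and 1.97 in cluster 4 of the same group. In cKO IR it was 1.97 in cluster 4, 1.61 in cluster 5, 1.13 in macrophage-like cells and 1.04 in cluster 8. Macrophage-like cells of the remaining groups had 2.28 in cKO control and 1.65 in WT IR. Cxcl16 was paired with Cxcl9 more than with Cxcl10. In WT control 88.2% of Cxcl9-positive cells had Cxcl16, and in cells thinned to 1000 UMIs the pair was found 1.94, 1.63, 1.46 and 1.40 times as often as independent detection gives in WT control, cKO control, WT IR and cKO IR. For Cxcl10 and Cxcl16 the same thinned ratio was 1.19 and 1.27 in the control groups and 0.983 and 0.932 in the irradiated groups. All 3 were detected in 13.8%, 13.7%, 9.97% and 10.8% of tumor cells in the same order, and none of them in 19.8% to 26.8%.

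The genes most like each chemokine were taken over 65 sums of cluster by group with at least 50 cells, among 8599 genes. For Cxcl9 they were Cxcl16 (Pearson r 0.939), Iigp1 (0.935), Cd83 (0.930), Dab2 (0.925) and Timp1 (0.921), and Cxcl10 came at rank 22 with 0.890. For Cxcl10 they were Ly6a (0.896), Cxcl9 (0.890), Maff (0.853), Ifrd1 (0.844) and Timp1 (0.841). For Cxcl16 they were Cd83 (0.952), Pgf (0.945), Anpep (0.945), Iigp1 (0.941) and Cxcl9 (0.939). These correlations describe sums that share libraries and depth, and they rest largely on the gap between tumor and blood. Over the 34 tumor sums alone, r was 0.61 between Cxcl9 and Cxcl10, 0.86 between Cxcl9 and Cxcl16, and 0.36 between Cxcl10 and Cxcl16.

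The pathway genes around the chemokines were read with the same ratio in tumors. Interferon-γ itself (Ifng) was counted at 14.4 CPM in WT control, 1.51 in cKO control, 9.31 in WT IR and 6.06 in cKO IR. Its UMIs lay in few lymphocytes, with 222 of them in 10 of 41 T cell-like cells of WT control (76.3% of the group's) and 177 in 12 of 52 NK cell-like cells of WT IR (93.2%). The Ifng level of these myeloid sorts thus rested on a handful of lymphocyte-like cells. Of Ifng, its receptor genes Ifngr1 and Ifngr2 and the kinases Jak1 and Jak2, none of 5 was past 2-fold in WT. Ifng (1.98) and Jak2 (1.03) were higher in cKO, beside 5.10% of all genes.

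Irf1, a transcription factor through which interferon-γ induces Cxcl9, was not lower after IR. It was at 283 CPM in WT control and 363 CPM in WT IR (log2 ratio 0.36), and at 268 and 316 CPM in cKO (0.24). Of 3 factors listed (Irf1, Irf8 and Batf2), none was past 2-fold in either genotype, and the list's median log2 ratio was 0.21 in WT and 0.69 in cKO.

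Other interferon-γ targets did not share the direction of Cxcl9. In WT, 3 of 12 were at least 2-fold higher (Irgm1 1.11, Cd274 1.03 and Nos2 1.01), none was lower, and the median log2 ratio was 0.73, beside 2.60% of all genes higher and a median of -0.13. In cKO 8 of 12 were higher, beside 5.10% of all genes, none was lower, and the median was 1.18. Cd274 encodes PD-L1, and Nos2 the inducible nitric oxide synthase of activated macrophages. Without the fibroblast-like cells 1 of 12 in WT (Irgm1) and 5 of 12 in cKO (Gbp4, Cd274, Nos2, Socs1 and Irgm1) were higher past the limit, beside 2.64% and 3.96% of all genes. Cxcl9, at -1.24 and -0.54, lay below all 12 of these targets in both genotypes.

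Type I interferon genes had the highest median of these lists in both genotypes, on the side of Cxcl10. The list held the ligand Ifnb1, the receptor genes Ifnar1 and Ifnar2, and factors and targets downstream of them. In WT 9 of 12 were at least 2-fold higher, beside 2.60% of all genes, and none was lower, with a median of 2.55. In cKO 10 of 13 were higher, beside 5.10%, with a median of 3.31, and the ligand Ifnb1 was lower (-1.13), beside 16.7%. Ifnar1 and Ifnar2 were within 2-fold, at 0.25 and -0.028 in WT and 0.66 and 0.52 in cKO. Ifit3, a marker of the antiviral state, was at 28.7 CPM in WT control and 238 CPM in WT IR (3.05), Isg15 at 404 and 2124 CPM (2.39), and Rsad2 at 149 and 1028 CPM (2.78). In control tumors 4 of 13 were lower in cKO than in WT, beside 1.36% of all genes, and 1 was higher, beside 3.40%. The median was -0.95. In irradiated tumors none of 12 passed the limit, which 0.199% of all genes passed upward and 0.896% downward. The IR difference of Cxcl10, 1.24 in WT and 0.95 in cKO, was smaller than that of the 9 and 10 genes past the limit, and larger than that of the others, which in WT were Ifnar1, Ifnar2 and Irf9 (0.72).

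MHC class II genes, whose transcription also follows interferon-γ through CIITA, were lower after IR in WT without reaching 2-fold, with a median of -0.85 over H2-Aa, H2-Ab1, H2-Eb1 and Cd74. In cKO the median was -0.22. Of 5 genes linked with suppressive macrophages, Mrc1 (-1.29 in WT and -1.03 in cKO) and Il10 (-1.89 and -2.50) were lower and none was higher, and Arg1 was at 0.86 and 0.77. Beside this, 3.12% of all genes were lower in WT and 16.7% in cKO. Among 8 NF-κB targets, Ccl4 (1.65) and Cxcl2 (1.02) were higher in WT, beside 2.60% of all genes. In cKO none was higher and Tnf (-1.28) was lower, beside 16.7% of all genes lower. The proteases Adam10, Adam17 and Dpp4, which process these chemokines, were all within 2-fold after IR. Of the receptors, Cxcr6 was lower in WT (-2.01) on 5.10 and 1.23 CPM, and Cxcr3 had too few UMIs to be counted in tumors. T cell-like cells held 96 Cxcr6 UMIs in WT control (41 cells) and 23 in WT IR (13 cells). The Cxcr6 ratio thus rested mostly on a few lymphocyte-like cells. Without the fibroblast-like cells, H2-Eb1 was also past the limit in WT, Jak2 in cKO and Cxcl2 in WT no longer were, and Tnfaip3 joined Tnf below it in cKO. Of all genes, 2.94% in WT and 6.26% in cKO were then lower past the limit. Cxcl11 and Mx1 were not analysed here.

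**Figure D4:**
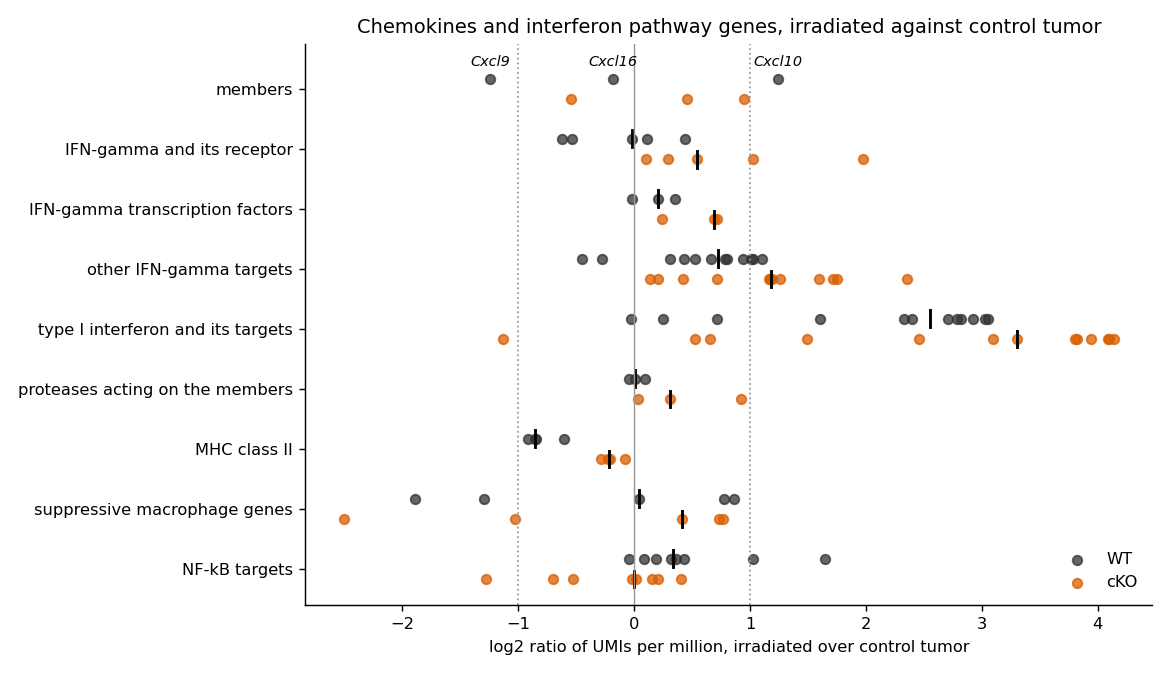
Log2 ratios of CPM, irradiated over control tumor, for the 3 chemokines (top row) and for the genes of 8 lists with at least 100 UMIs over both groups; each point is a gene, dark for WT and orange for cKO, black ticks mark list medians and dotted lines the 2-fold limits. In WT, Cxcl9 at -1.24 and Cxcl10 at 1.24 stand on opposite sides, while the type I interferon list has its median at 2.55 and the MHC class II list at -0.85.

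In blood the chemokines rested on a small number of cells. Cxcl9 was counted with 24 UMIs in 6 cells of WT control, 157 UMIs in 4 cells of cKO control, 127 UMIs in 8 cells of WT IR and 9 UMIs in 3 cells of cKO IR. Single cells held 17, 146, 42 and 5 of these UMIs, and the cKO control cell with 146 UMIs fell in cluster 4, a cluster made mostly of tumor cells. The log2 ratios of Cxcl9 in blood, 2.31 for IR in WT, -3.96 for IR in cKO, 2.82 for cKO against WT in control and -3.45 in IR, therefore describe a few cells. Of all genes counted, 0.349% were at least 2-fold higher and 0.882% lower for IR in WT blood, and 0.433% and 0.971% in cKO blood. Between genotypes these shares were 0.686% and 1.58% in control and 0.146% and 0.499% in IR blood. Without the cell with the most UMIs in each group they were 3.38, -1.24, 0.73 and -3.89.

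Cxcl10 was somewhat broader in blood. It was found in 77 cells of WT control (377 UMIs), 83 of cKO control (497 UMIs), 129 of WT IR (565 UMIs) and 59 of cKO IR (250 UMIs). After IR the WT value differed by 0.54 (0.35 to 0.73) and the cKO value by -0.96 (-1.19 to -0.74), and cKO against WT was 0.56 in control and -0.94 in IR. In cKO control 1 cell held 267 of the 497 UMIs, and without the top cell of each group the IR difference in cKO was -0.12 and the control difference between genotypes -0.24. In WT IR 1 cell held 101 of the 565 UMIs and fell in cluster 5, a cluster made mostly of tumor cells. Without the top cells WT control was at 14.4 CPM and WT IR at 21.3 CPM. Classical monocyte-like cells held 335, 387, 241 and 155 of these UMIs, at 42.6 CPM in WT control, 57.5 in cKO control, 25.3 in WT IR and 17.9 in cKO IR. The cKO control cell with 267 UMIs was one of them, and without it they held 120 UMIs, at 17.9 CPM, below the 33.5 CPM of WT control without its own top cell. From control to IR the classical monocyte-like cells of WT were lower, while the whole WT group was higher. Neutrophil-like cells had a Cxcl10 UMI in 0.703% of cells in blood control and 1.35% in blood IR, at 4.05 and 16.9 CPM.

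Cxcl16 had 44, 74, 32 and 35 UMIs in WT control, cKO control, WT IR and cKO IR blood, never more than 7 in a cell. For IR its log2 ratio in WT was -0.49 (-1.21 to 0.18), and in cKO it came to -1.03 (-1.68 to -0.46). For cKO against WT it was 0.90 in control and 0.36 in IR. At this depth the WT difference was not detectable. None of the 3 chemokines had a UMI in 95.9% to 97.5% of blood cells.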

How the data were processed

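The authors deposited raw UMI counts per feature and barcode for 4 droplet libraries made with the 3′ v3.1 kit of 10x Genomics, each with 32285 genes and 2 hashtags. Per the file headers these came from Cell Ranger 4, while the methods and the submitters' processing notes name Cell Ranger 6.0.1 (mm10, GENCODE vM23) and Seurat 4.0.6. All barcodes with a count were present, so cells were called again, by an order-of-magnitude threshold (8000 expected cells) plus a test against the ambient profile of barcodes ranked 45000 to 90000 at a level of 0.01. As in the methods, barcodes with under 200 genes or over 25% mitochondrial UMIs were removed. Genotype needed at least 20 hashtag UMIs, with WT at B0301 at or above B0302 and cKO at B0302 at least 4 times B0301, and 383, 459, 500 and 388 barcodes in between were left out (control then IR, tumor before blood). Scrublet's own threshold marked 4, 1, 0 and 1 doublets and had not worked, so the 6% of barcodes with the highest scores were removed in each library.

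UMIs were summed per group and scaled to CPM, and log2 ratios had 1 UMI added (scaled to depth) with exact conditional binomial intervals. Genes past 1 on the log2 scale with at least 100 UMIs over both groups were counted. Many UMIs of a gene can come from 1 cell, so intervals, which treat UMIs as independent, are too narrow. Clustering followed the methods (Seurat 5.3.0, 2000 variable genes, 40 principal components, resolution 0.8), and a cluster was named where at least 3 markers of a class were raised 2-fold in at least 25% of its cells and no other class had more markers among its 10 leading genes, a rule that left cluster 3 unnamed despite 4 raised macrophage markers and was set after the clusters were seen. scanpy 1.11.5, numpy 2.4.6 and scipy 1.17.1 were used in Python 3.11.15, and edgeR 4.0.16 (TMM) and DESeq2 1.42.0 (size factors) in R 4.3.3 for alternative scaling only. Ratios and intervals were tested on simulated data. Positions came from GENCODE vM21, another release on the same build, and promoters from RefSeq tables on mm10, which held 2 of the 3 genes.

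The members and gene lists were chosen with earlier results of these data known. Genes named are the 3 chemokines, the listed pathway genes, Ythdf2 and Lyz2 as label checks, and for each chemokine the 5 genes most like it. 1 gene of the transcription factor list is not reported here. The columns of all 4 matrices were used.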

Additional observations from a re-analysis of the deposited data

Results flagged for a closer look

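Several differences had opposite signs under the same contrast in 2 groups of 1 pooled sample each, and none of these differences was tested over samples. In tumors the log2 ratio of Cxcl16 for IR was -0.18 in WT and 0.46 in cKO, and for cKO against WT it was -0.37 in control and 0.28 in IR. Without the fibroblast-like cells the value of 0.46 was 0.05. In blood the ratio of Cxcl9 for IR was 2.31 in WT and -3.96 in cKO, and that of Cxcl10 was 0.54 and -0.96. For cKO against WT in blood, Cxcl9 was at 2.82 in control and -3.45 in IR, and Cxcl10 at 0.56 and -0.94. Between tissues, Cxcl9 for IR in WT was at -1.24 in tumor and 2.31 in blood, Cxcl10 for IR in cKO at 0.95 and -0.96, and Cxcl16 for IR in cKO at 0.46 and -1.03. The blood values rest on few cells: without the top cell of each group, Cxcl9 for IR was 3.38 in WT and -1.24 in cKO, and Cxcl10 for IR in cKO was -0.12.

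Barcodes between the hashtag limits, which no comparison used, also held these transcripts. In 361 such barcodes of tumor IR, Cxcl10 was at 1675 CPM and Cxcl16 at 371 CPM, above the 777 and 292 CPM of 311 such barcodes in tumor control. Cxcl9 was at 383 and 614 CPM.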

How the results depend on the processing

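Values are log2 ratios unless said otherwise, and no cause of a shift was tested. With 1 pooled sample per group, the depth of the counts limits only the counting error, and nothing here measures the spread between mice. No paired analysis was possible because each group held a single replicate. A minimum of 100 hashtag UMIs, at most 10% mitochondrial UMIs and every barcode with 500 UMIs moved no value beyond its interval in any of 24 ratios each.

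IR in WT tumors, -1.24 for Cxcl9, was -1.32 with the 4-fold hashtag margin, -1.09 with TMM, -1.08 with median-of-ratios factors, -1.40 thinned to 1000 UMIs, -1.14 in the other tumor matrix, -2.44 in macrophage-like cells alone and -1.44 without the fibroblast-like cells. In cKO tumors, -0.54 became -0.34, -0.35, -0.65, -0.40, -2.61 and -0.98 from TMM onward. Cxcl10 in WT, 1.24, was 1.79 with the margin, 1.17 with the order-of-magnitude threshold alone, 1.33 without doublet removal, 1.39 and 1.40 with TMM and median-of-ratios factors, 1.28 thinned, 1.13 without the fibroblast-like cells and -0.80, the other direction, in macrophage-like cells. In cKO, 0.95 was 0.90 without doublet removal, 1.16 and 1.15 with the other factors, 0.88 thinned, 0.92 in the other matrix, 0.63 without fibroblast-like cells and -1.81 in macrophage-like cells. Cxcl16 in WT, -0.18, was -0.35 with the margin, -0.033 and -0.022 with the other factors, -0.31 thinned and -0.30 without fibroblast-like cells, and in cKO, 0.46, it was 0.66 and 0.66, 0.22 thinned, 0.22 in macrophage-like cells and 0.049 without fibroblast-like cells.

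For cKO against WT in control tumors, Cxcl9 at -0.74 was -0.88 with the margin, -0.81 and -0.80 with the other factors, -0.50 without fibroblast-like cells and 0.78, the other direction, in macrophage-like cells. Cxcl10 at 0.02 was 0.72 with the margin, -0.024 with the threshold alone, 0.10 without doublet removal, -0.047 and -0.038 with the other factors, 0.074 thinned, 1.06 in macrophage-like cells and 0.17 without fibroblast-like cells. Cxcl16 at -0.37 was -0.65 with the margin, -0.43 and -0.42 with the other factors, -0.25 thinned, -0.12 without fibroblast-like cells and 0.12 in macrophage-like cells. In irradiated tumors, Cxcl9 at -0.05 was -0.11 with the margin, 0.0029 in the other matrix and 0.62 in macrophage-like cells. Cxcl10 at -0.27 was -0.12 with the margin, -0.25 with the threshold alone, -0.33 without doublet removal, -0.33 thinned, -0.32 without fibroblast-like cells and 0.053 in macrophage-like cells. Cxcl16 at 0.28 was 0.16 with the margin, 0.53 in macrophage-like cells and 0.22 without fibroblast-like cells.

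With cluster 3 added to the macrophage-like cells, IR gave -1.92 and -1.38 (Cxcl9), -0.53 and -0.995 (Cxcl10, the other direction) and -0.30 and 0.15 (Cxcl16) in WT and cKO. For cKO against WT it gave -0.52, 0.69 and -0.27 in control tumors, where Cxcl9 and Cxcl16 had the direction of the whole groups and not that of the macrophage-like cells without cluster 3, and 0.025, 0.22 (the other direction) and 0.18 in irradiated tumors.

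In blood, leaving out the cell with the most UMIs in each group gave for IR 3.38 (Cxcl9, WT), -1.24 (Cxcl9, cKO) and -0.12 (Cxcl10, cKO), and for cKO against WT in control 0.73 (Cxcl9) and -0.24 (Cxcl10, the other direction). Thinning gave for IR -3.12 (Cxcl9, cKO), 1.38 (Cxcl10, WT) and -2.34 (Cxcl16, cKO), for genotype in control 1.92 (Cxcl9) and 0.87 (Cxcl10), and in IR -1.39 (Cxcl10) and -1.14 (Cxcl16).

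Genes past 2-fold numbered 581, 2332, 120 and 133 for IR in WT tumor, cKO tumor, WT blood and cKO blood, and 508, 110, 218 and 62 for genotype in tumor control, tumor IR, blood control and blood IR. A minimum of 20 UMIs gave 1122 for the first, 397 and 408 for IR in blood, and 955, 400, 518 and 259 for genotype, and no minimum gave 3310, 6055, 2560, 2459, 3065, 2430, 2540 and 2139. The co-detection ratios of Cxcl9 and Cxcl10 (1.44, 1.30, 1.21 and 1.26) were 1.79, 1.96, 1.34 and 1.42 thinned, and 1.74, 1.36 and 1.14 in macrophage-like cells of WT control, WT IR and cKO IR. Without a hashtag minimum and with genotypes pooled, where tumor matrices share barcodes, IR gave -0.36, 0.32 and 0.07 in place of -0.91, 1.09 and 0.16. The alternatives with other factors, margins and single cell types were chosen in advance, and those on the top cell, the fibroblast-like cells, cluster 3 and the hashtag minimum after the values were seen.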

Other observations

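Cells outside the sorted phenotype also held these transcripts. Fibroblast-like cells had 275 CPM of Cxcl10 in tumor control, with a UMI in 44.0% of 364 cells and a median depth of 26842 UMIs, and 929 CPM in tumor IR, with a UMI in 57.9% of 126 cells. Their Cxcl9 was at 36.8 and 186 CPM and their Cxcl16 at 26.2 and 42.7 CPM. Single cells held 79 of the 389 Cxcl9 UMIs in tumor control and 267 of the 629 in tumor IR. T cell-like cells of tumor IR, 28 cells, had 83 UMIs of Cxcl10 and none of Cxcl9.

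Cycling macrophage-like cells reached 50 cells only in cKO control, where 159 cells had 715 CPM of Cxcl9, 1078 CPM of Cxcl10 and 395 CPM of Cxcl16, with a Cxcl16 UMI in 91.8% of them. Cxcl9 and Cxcl10 were found together in 31.4% of these cells, which was more than in any other cKO control cluster of at least 50 cells. The cluster was deep, with a median of 14038 UMIs, and independent detection gives 44.3 cells where 50 were seen. That ratio of 1.13 was below the 1.30 of all cKO control tumor cells. Within WT tumor clusters, Cxcl16 was lower after IR in 5 of 7 and higher in 2, and within cKO clusters lower in 2 of 5 and higher in 3.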
